A study of Homo sapiens with 9 samples.

Results

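The genes described here are 6 insulin-like growth factor binding proteins (IGFBPs), IGFBP2, IGFBP3, IGFBP4, IGFBP5, IGFBP6 and IGFBP7, of the 20848 genes in the count tables. They were chosen by name, with results of these data in view. The values that led to the choice are not recorded, so the members' own changes and site counts are given as descriptions. All 6 passed the filter on low counts that left 13856 genes for testing. The cells were U251, a human glioblastoma line, in which the RNA-binding protein Musashi1 (gene MSI1) had been knocked down. RNA-seq covered 3 MSI1 knockdown samples and 3 control samples, titled WT, and MSI1 iCLIP covered 3 further samples of WT cells. In iCLIP, ultraviolet light links RNA to the proteins on it, the protein of interest is pulled down, here with a monoclonal antibody to MSI1, and reads mark the linked nucleotides. The labels do not say how MSI1 was lowered or what the control cells received, and they name no separate cultures, so the p-values reflect variation among these samples, possibly only technical.

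IGFBPs are secreted proteins that bind the insulin-like growth factors IGF1 and IGF2, carry them outside cells, and limit or prolong their access to the receptor IGF1R. Proteases such as pappalysin (PAPPA) cut the binding proteins and release the growth factor. Several members also bind matrix or cell-surface proteins and act without the growth factors, and IGFBP2 is known for its high levels in glioblastoma. MSI1 is a regulator of mRNA translation and stability that binds short RNA words built around UAG, mostly in 3′ UTRs.

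The members' 3′ UTRs differ in how many such words they hold. The stretches shown are the 30 bases with the most TAG words in the 3′ UTRs of the 3 members with the most per kb, read from the GENCODE release 29 transcripts (GRCh38) in the RNA's own direction, with TAG in capitals. Where several windows held the same number, the one with its words best centred is shown.
IGFBP5, bases 313 to 342 of its 3′ UTR: TAGaagagagagaaagacgaaTAGagtTAG
IGFBP3, bases 1134 to 1163: TAGccccaaataTAGtaagatctatacTAG
IGFBP7, bases 13 to 42: ttatTAGtctgcatggttaaaagTAGtcat

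The IGFBP5 and IGFBP3 windows hold 3 TAG words each and the IGFBP7 window holds 2. They were not matched to iCLIP positions, because the site lists use the older build hg18, for which no genome sequence was used. The 3′ UTR of IGFBP5 is 4646 bases long and holds 47 TAG words, or 10.1 per kb, at percentile 44.8 of 17986 human 3′ UTRs. IGFBP7 has the densest 3′ UTR of the 6, with 9 words in 544 bases, 16.5 per kb and percentile 89.6. IGFBP3 follows with 21 words in 1599 bases, 13.1 per kb and percentile 68.1. IGFBP4 has 10 in 1148 bases (8.71 per kb, percentile 34.9), IGFBP6 has 1 in 178 bases (5.62 per kb, percentile 17.2), and the 332 bases of IGFBP2 hold none. Longer words, selected in vitro for the mouse protein, begin with G or A, go on with 1 to 3 letters T and end in AGT. They occur 7 times in IGFBP5, 6 times in IGFBP3, 3 times in IGFBP7 and 0 times in the others. At least 1 such word is present in 99.3% of 3′ UTRs of a length like that of IGFBP5, in 86.1% for IGFBP3 and in 49.2% for IGFBP7. For the members without such a word the shares are 77.3% (IGFBP4), 30.9% (IGFBP2) and 18.7% (IGFBP6). All these words were searched on the transcript strand alone. The transcripts read for words differ from the deposited exon annotation. The 3′ UTR of IGFBP7, at 544 bases, is longer than its deposited last exon of 259 nucleotides, and that of IGFBP3 (1599) is longer than 1590. Words of IGFBP7 were thus counted over more sequence than the last exon in which reads and iCLIP sites were counted.

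Gene counts summed to between 37082699 and 42427430 in knockdown libraries and between 32919299 and 47277016 in control libraries. Control replicate 3 stood apart. On the principal component holding 62.5% of the variance over tested genes it lay at 80.6, while the other 5 libraries lay between -40.9 and 10.4. MSI1 itself stood at 3.15, 5.11 and 2.26 CPM (edgeR's depth-normalised read count, with library sizes scaled by TMM) in knockdown replicates 1, 2 and 3, against 16.0, 17.7 and 7.59 in control replicates 1, 2 and 3. The ranges did not overlap, which was so, with the knockdown lower, for 14.1% of all tested genes. The log2 fold change of MSI1, -1.97 ± 0.42 (SE, n = 3 each), had an adjusted p of only 0.0699 in edgeR's quasi-likelihood test. It was 0.00279 in a fit that also held the replicate numbers as a block. The 5 markers of the glioma and astrocyte lineage (GFAP, VIM, NES, S100B and CD44) were all tested, and summed to between 6236 and 7197 CPM in knockdown and between 6601 and 7774 CPM in control libraries. Summed markers of other cell types reached no more than 27.2 CPM in knockdown and 27.7 CPM in control libraries (neuronal SYT1), and leukocyte, endothelial and oligodendrocyte markers no more than 5.64 and 7.21 CPM.

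IGFBP5 was the 1 member that passed the test, and it was higher in the knockdown. This matrix-binding member, studied in bone and in mammary involution, stood at 783, 736 and 795 CPM in knockdown replicates 1, 2 and 3, against 385, 238 and 239 CPM in control replicates 1, 2 and 3. Each knockdown library lay above each control library, as for 8.73% of all tested genes, and the knockdown libraries lay closer together. Means were 771 ± 30.9 CPM in knockdown and 287 ± 84.3 CPM in control cells (SD, n = 3 each), 2.69 times as high in the knockdown. The log2 fold change was 1.43 ± 0.21 (SE), with an adjusted p of 0.0279 by edgeR's quasi-likelihood test over all tested genes. In bulk RNA, more cells with the mRNA and more of it per cell cannot be told apart. IGFBP5 ranked 101 of 13856 by p and 100 by upward log2 fold change. The 3 same-numbered pairs gave log2 ratios of 1.03, 1.63 and 1.73. Without any 1 of the knockdown replicates 1, 2 and 3 the adjusted p was 0.140, 0.120 and 0.109, and without control replicate 2 it was 0.109, while it was 0.0322 without control replicate 1 and 0.000835 without control replicate 3. The log2 fold change stayed between 1.30 and 1.69 in these fits.

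Of the 6 members, 1 was called higher and 0 lower at an adjusted p under 0.05, against 0.772% of all tested genes called higher and 0.902% called lower (107 and 125 genes, 1.67% in either direction). Where median ratios (DESeq2's size factors) replaced TMM, 107 were higher and 84 lower. The median log2 fold change was 0.43 over the members and -0.04 over all tested genes. Since the members were chosen with these results in view, nothing is read from that difference.

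**Figure D1:**
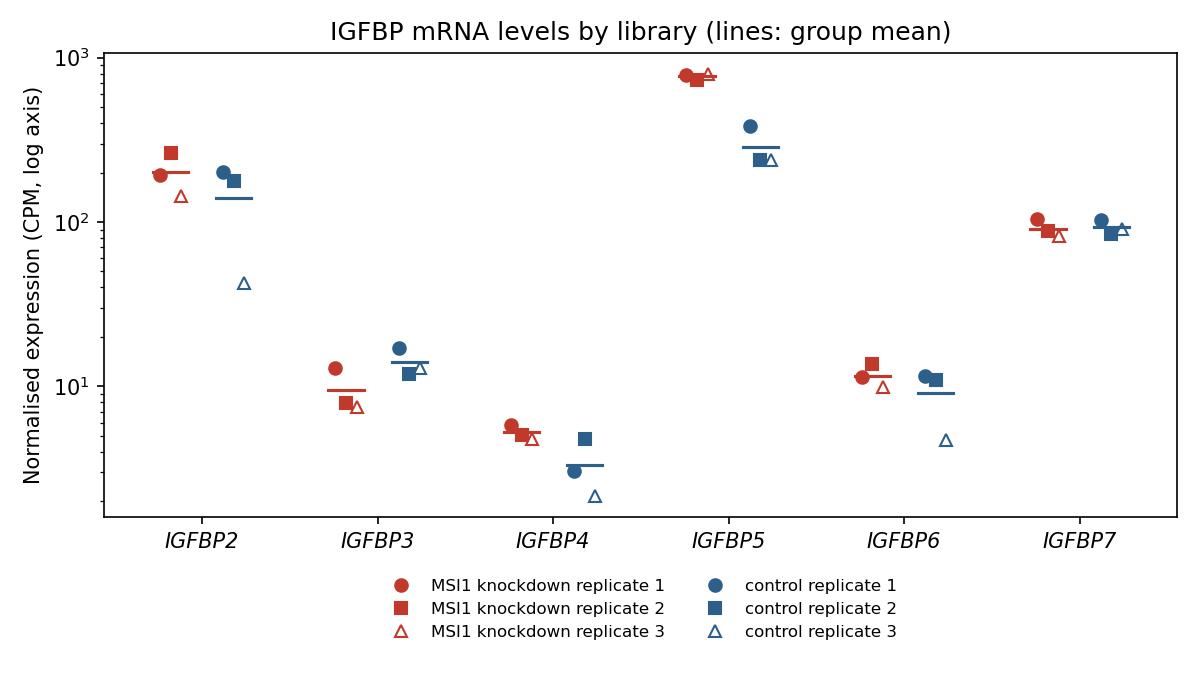
Normalised level of each IGFBP in CPM (log axis) in each RNA-seq library, MSI1 knockdown left of control, with a symbol for each replicate and a line for each group mean. IGFBP5 lies between 736 and 795 CPM in the knockdown libraries and between 238 and 385 CPM in the control libraries, while control replicate 3 is far below the other libraries for IGFBP2.

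IGFBP3, the main carrier of growth factors in serum, was lower in every same-numbered pair. It stood at 13.0, 7.95 and 7.52 CPM in knockdown replicates 1, 2 and 3, against 17.2, 11.8 and 12.9 CPM in control replicates 1, 2 and 3. The groups overlapped, since knockdown replicate 1 was above control replicates 2 and 3. The log2 fold change was -0.56 ± 0.28 (SE, n = 3 each), with an adjusted p of 0.408 by edgeR. The pairs gave log2 ratios of -0.40, -0.57 and -0.77. When replicate numbers were fitted as a block, IGFBP3 fell by 0.58 on the log2 scale (SE 0.14, adjusted p = 0.0367, edgeR). That fit called 10.3% of all tested genes lower and 7.04% of all tested genes higher, 17.3% in either direction. The same fit gave IGFBP5 a log2 fold change of 1.46 and an adjusted p of 0.00351, and called no other member.

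IGFBP4, an inhibitor of growth factor action that PAPPA cuts, had few reads, between 69 and 249 per library. It stood at 5.85, 5.06 and 4.80 CPM in knockdown replicates 1, 2 and 3, against 3.07, 4.76 and 2.15 CPM in control replicates 1, 2 and 3. The groups did not overlap, by a margin of 4.80 CPM in knockdown replicate 3 against 4.76 CPM in control replicate 2. Groups were separated in this way, with the knockdown higher, for 8.73% of all tested genes. The log2 fold change of 0.65 ± 0.31 (SE) had an adjusted p of 0.380 by edgeR, and 0.0984 with the replicate block.

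IGFBP2, the member long associated with glioblastoma, did not pass the test. It stood at 194, 262 and 145 CPM in knockdown replicates 1, 2 and 3, against 201, 178 and 42.4 CPM in control replicates 1, 2 and 3. Control replicate 3 was the low library, and the other 5 overlapped. The log2 fold change was 0.51 ± 0.52 (SE, n = 3 each) with an adjusted p of 0.749 by edgeR, and 0.13 without control replicate 3.

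IGFBP6, which prefers IGF2 to IGF1, followed IGFBP2 across the libraries at a much lower level. It stood at 11.3, 13.6 and 9.93 CPM in knockdown replicates 1, 2 and 3, against 11.5, 10.9 and 4.70 CPM in control replicates 1, 2 and 3. As for IGFBP2, control replicate 3 was the low library and the groups overlapped. The log2 fold change of 0.36 ± 0.34 (SE) had an adjusted p of 0.726 by edgeR, and was 0.11 without control replicate 3.

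IGFBP7, a member with weak growth factor binding that is known from tumour vessels and senescent cells, moved least. It stood at 104, 87.9 and 82.0 CPM in knockdown replicates 1, 2 and 3, against 103, 84.6 and 91.1 CPM in control replicates 1, 2 and 3. The groups overlapped throughout, and the log2 fold change was -0.03 ± 0.15 (SE, n = 3 each; adjusted p = 0.965, edgeR), with a sign that turned under other scalings. Its annotated span shares 91 nucleotides with the gene POLR2B on the opposite strand, and the strand setting of the read counting is not given in the sources used here.

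**Figure D2:**
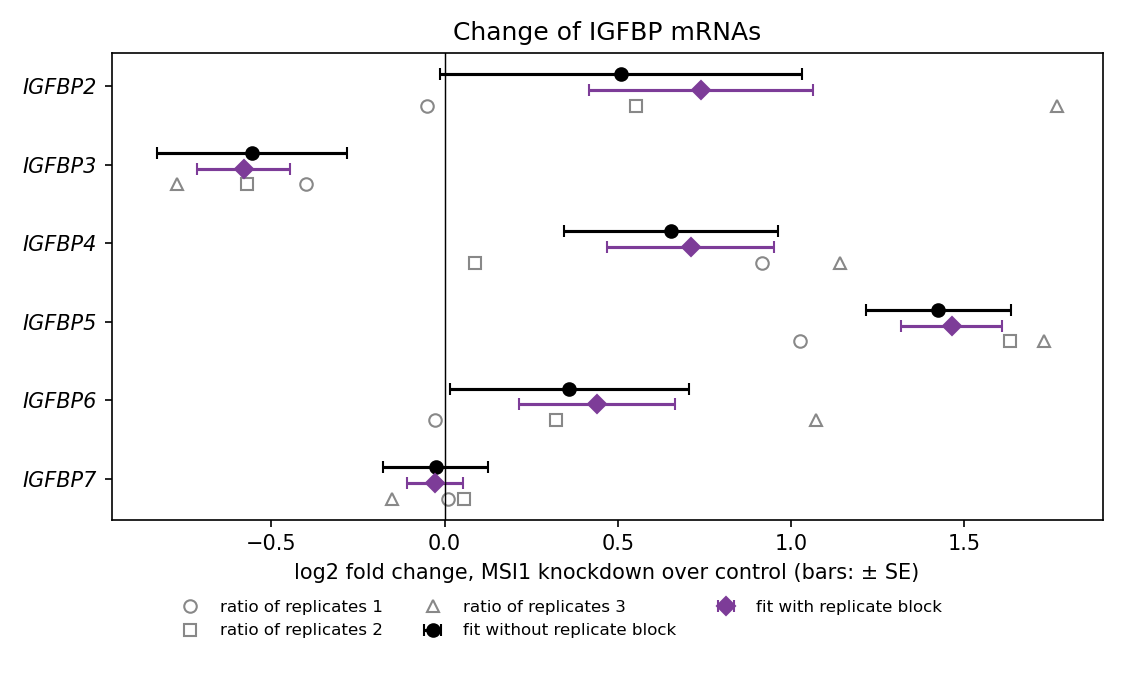
Log2 fold change of each member, MSI1 knockdown over control, from the fit without and with the replicate block (bars, SE) and as the ratio of each same-numbered pair of libraries. IGFBP5 lies at 1.43 and all 3 of its pairs exceed 1, IGFBP3 lies below 0 in all 3 pairs, and the pair of replicates 3 gives the highest ratio for IGFBP2, IGFBP4, IGFBP5 and IGFBP6.

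Per length of exon, 3 members stood well above the other 3. Levels are RPKM, the CPM value divided by the gene's exonic length in kilobases. In knockdown cells the order was IGFBP2 at 140 ± 41.0 RPKM, IGFBP5 at 124 ± 4.95, IGFBP7 at 82.2 ± 10.2, IGFBP6 at 12.0 ± 1.94, IGFBP3 at 3.61 ± 1.16 and IGFBP4 at 2.34 ± 0.244 (SD, n = 3). IGFBP2 and IGFBP5 overlapped there, and no other neighbours in the order did. In control cells the order was IGFBP2 at 98.5 ± 60.1 RPKM, IGFBP7 at 83.7 ± 8.48, IGFBP5 at 46.0 ± 13.5, IGFBP6 at 9.37 ± 3.91, IGFBP3 at 5.31 ± 1.08 and IGFBP4 at 1.49 ± 0.592 (SD, n = 3). IGFBP2 overlapped with IGFBP7, and IGFBP6 with IGFBP3. From the gene counts, IGFBP5 stood above IGFBP7 in each knockdown library and below it in each control library. From summed exon counts, the order in knockdown cells was not settled. There IGFBP5 had 102, 95.6 and 105 RPKM in knockdown replicates 1, 2 and 3, and IGFBP7 had 112, 94.7 and 90.7, so the ranges overlapped and IGFBP7 was the higher one in replicate 1. IGFBP5 stayed below IGFBP7 in each control library from exon sums. Among all tested genes, IGFBP5 was at percentile 96.8 of RPKM in knockdown and 88.5 in control cells, while IGFBP4 was at 27.3 and 22.5. IGFBP6 lay in the middle range, at 60.7 in knockdown and 53.2 in control cells, and IGFBP3 was at 33.5 and 40.4.

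The 6 members together summed to 374, 399.6 and 318 RPKM in knockdown replicates 1, 2 and 3, against 315, 257 and 161 RPKM in control replicates 1, 2 and 3. IGFBP5 made up 34.4 ± 5.32% of that sum in knockdown and 19.4 ± 4.52% in control cells (SD, n = 3 each). The share of IGFBP7 was 22.7 ± 2.63% in knockdown and 36.7 ± 12.4% in control cells, and that of IGFBP2 was 38.0 ± 7.11% and 37.2 ± 16.4%. A share falls when another member rises, so these values hold no evidence of their own on IGFBP7.

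IGFBP2 and IGFBP5 are neighbours on chromosome 2 (hg18), at 217206372 to 217237403 on the plus strand and 217245073 to 217268517 on the minus strand, with their 3′ ends 7669 nucleotides apart. IGFBP3 lies on chromosome 7 (45918369 to 45927396, minus strand), IGFBP4 on chromosome 17 (35853202 to 35867508, plus strand), IGFBP6 on chromosome 12 (51777703 to 51782395, plus strand) and IGFBP7 on chromosome 4 (57592001 to 57671296, minus strand). Across the 6 libraries the log2 CPM values of IGFBP2 and IGFBP5 correlated at 0.55 (Pearson's r), a description with no test. IGFBP6 correlated with IGFBP2 at 0.999, the highest of the 15 pairs of members. IGFBP2 is also the gene most like IGFBP6 among the 10700 genes with a mean log2 CPM of at least 2. Without knockdown replicate 2 and control replicate 3, the 2 libraries farthest from the median, r was 0.9997 over the other 4 libraries. The genes most like IGFBP2 were URGCP and CARD10 (both 0.999), and those most like IGFBP5 were C3orf10 (0.993) and AMIGO2 (0.992). BFAR (0.992) and BOD1 (0.991) were nearest to IGFBP3, RRAGA (0.984) and ACOT2 (0.979) to IGFBP4, and NGRN (0.989) and CTDSPL (0.986) to IGFBP7. These are the 2 highest values per member among 10700 genes over only 6 libraries, so they describe these libraries and no more. Except for IGFBP6 with IGFBP2, each fell when the member's 2 farthest libraries were left out, to as low as 0.883 for IGFBP7 with CTDSPL.

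No exon of a member passed the test of exon use. The members have 26 exons in the exon tables, of which 24 were tested with edgeR's diffSpliceDGE, which sets an exon against the rest of its gene. Of these, 0 were called and 0 had an unadjusted p under 0.05. Over all genes 0 of 123109 exons were called (0%) and 263 had an unadjusted p under 0.05. A calibrated test would give a share of about 0.05 with no change at all, so this test was very conservative here. Its lack of calls therefore does not show that exon use was unchanged. Changes of the members' exons relative to their gene lay between -0.17 (exon 4 of IGFBP3) and 0.35 (exon 1 of IGFBP6) on the natural log scale, not log2.

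IGFBP5 was counted mostly in its last exon, exon 4, which holds the 3′ UTR. It took 83.3%, 80.4% and 85.3% of the gene's exon counts in knockdown replicates 1, 2 and 3, and 81.2%, 79.7% and 89.2% in control replicates 1, 2 and 3. Exon 1 took 11.0%, 12.6% and 9.52% in knockdown replicates 1, 2 and 3, and 11.8%, 13.8% and 6.38% in control replicates 1, 2 and 3. Control replicate 3 had the lowest share of exon 1 and the highest share of exon 4. With the last exon of each gene counted alone, a choice made after the data were seen, IGFBP5 had a log2 fold change of 1.45 and an adjusted p of 0.0223 by edgeR.

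Control replicate 3 was lower in exon 1 in other members too. For IGFBP6, exon 1 took 8.42%, 9.12% and 10.2% of the exon counts in knockdown replicates 1, 2 and 3, and 8.37%, 6.13% and 1.69% in control replicates 1, 2 and 3. For IGFBP7, exon 1 took 3.55% in control replicate 3 and between 5.67% and 8.87% in the other 5 libraries, and its exon 5, the last, took 40.7% against 26.9% to 33.0%. For IGFBP4, exons 1 and 3 had 0 reads in control replicate 3, and exon 4 took 98.6% there and between 71.3% and 80.8% elsewhere. IGFBP2 did not follow in exon 1 (6.66%, against 6.11% to 7.62%) but had less of exon 2 (19.3%, against 24.7% to 27.5%). The last exon of IGFBP3 took 75.7% in control replicate 3, within the 70.8% to 80.8% of the others. The part of this uneven coverage in the low IGFBP2, IGFBP4 and IGFBP6 levels of control replicate 3 was not tested.

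**Figure D3:**
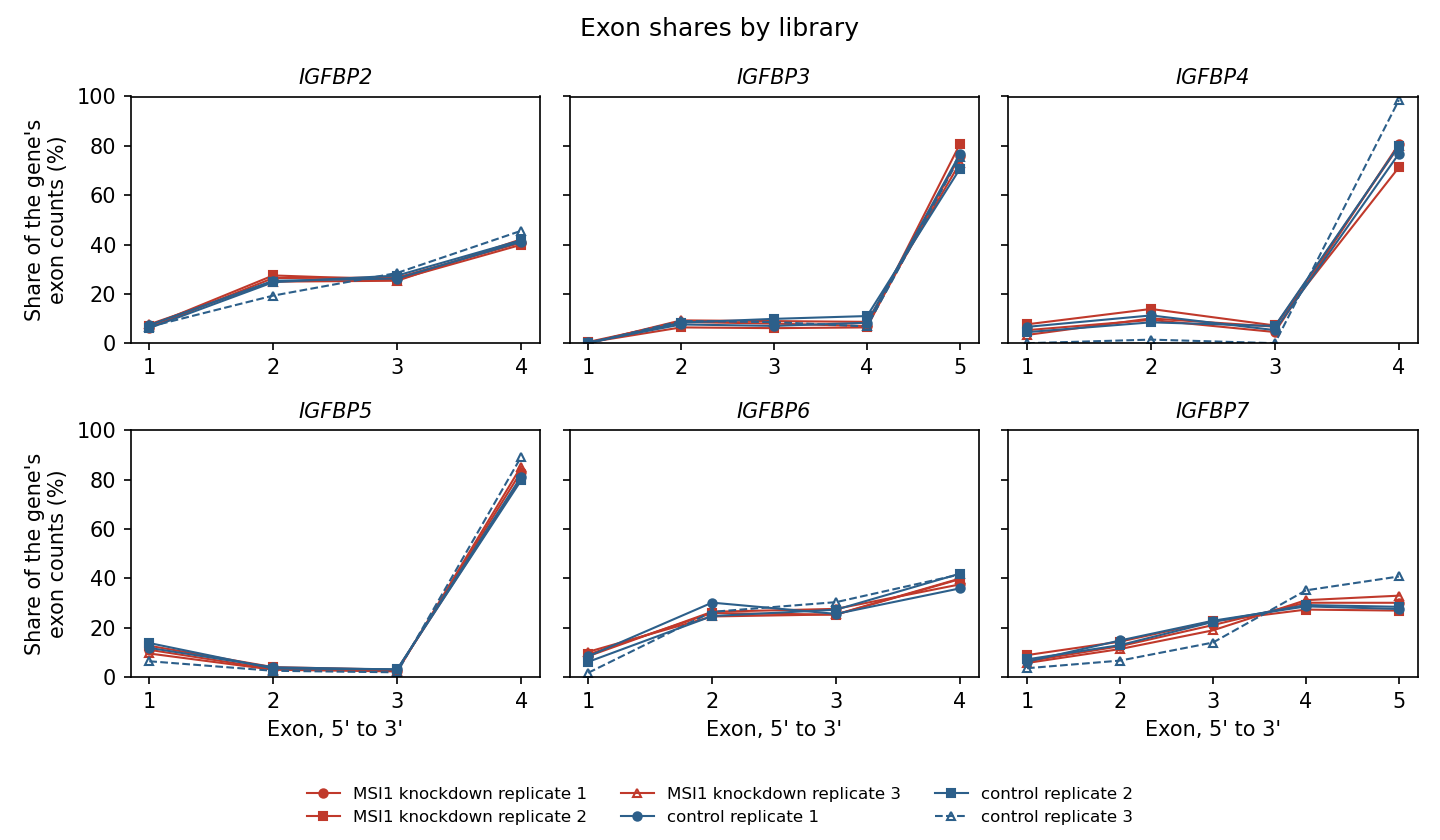
Share of each member's exon counts, in percent, taken by each exon, numbered from the 5′ end, with 1 line per RNA-seq library (MSI1 knockdown red, control blue, control replicate 3 dashed). Control replicate 3 has the lowest exon 1 share for IGFBP4, IGFBP5, IGFBP6 and IGFBP7 and the highest last exon share for IGFBP2, IGFBP4, IGFBP5 and IGFBP7.

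In iCLIP, IGFBP5 held the most MSI1 crosslink sites of the members in lists 1 and 3. The 3 deposited lists hold 1746795, 145718 and 208722 single-nucleotide sites, so counts per gene are compared within a list. Their p-values are the authors' own, and no header names that column. On the gene's own strand IGFBP5 had 692, 17 and 39 sites in lists 1, 2 and 3, at percentiles 96.9, 86.9 and 92.2 of the tested genes. Of these, 583, 17 and 37 were in exons, and 547, 17 and 35 in the last exon. That is 93.8%, 100% and 94.6% of its exonic sites, in an exon that makes up 76.6% of the exonic length. In list 1 its exons held 93.4 sites per kb and its introns 6.33. Antisense sites numbered 5, 0 and 0.

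IGFBP7 had 291, 35 and 36 sites, at percentiles 91.2, 94.5 and 91.2. Its introns are long, and 229, 12 and 16 sites lay in them, but its last exon of 259 nucleotides was the densest of the members, with 57, 23 and 17 sites, or 220, 88.8 and 65.6 per kb. Of these, 23, 12 and 1 carry the name of POLR2B as well. In lists 1 and 2 not all of them can lie in the 91 nucleotides that both annotated spans share. With the exon cut into 4 equal parts, that stretch lies within parts 3 and 4. These parts held 16 and 4 sites in list 1, and 8 and 3 in list 2. The exon is shorter than the 3′ UTR of 544 bases in which the words of IGFBP7 were counted. IGFBP2 had 293, 4 and 12 sites, and 270, 4 and 12 of them were in introns. IGFBP3 had 18, 1 and 8, all in exons and 15, 1 and 8 of them in its last exon. IGFBP6 had 0, 1 and 1, both in an intron, and IGFBP4 had 0 in each list. At least 1 site was found in 93.7%, 70.5% and 76.6% of all tested genes in lists 1, 2 and 3.

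iCLIP reads can rise with the amount of the RNA, and no control immunoprecipitation was used here, so the part of abundance in the site counts was not tested. The order of the members by sites was not their order by level. IGFBP2, with the highest mean RPKM in control cells (98.5, against 46.0 for IGFBP5), had 16.1 exonic sites per kb in list 1, against 93.4 for IGFBP5, and 0 in lists 2 and 3. IGFBP3, IGFBP4 and IGFBP6, the members with the lowest RPKM there, had at most 18 sites in any list.

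The 3 lists shared 1 nucleotide among the members. It is position 217245768 on the minus strand of chromosome 2 (hg18), in exon 4 of IGFBP5, at nucleotide 4083 of the 4778 of that exon, counted from its 5′ end. The deposited p-value of the site was 0.000340, 0.203 and 0.0132 in lists 1, 2 and 3, which made it the lowest in the gene in list 3, at rank 2 in list 1 and rank 7 in list 2. The lowest p-value of IGFBP5 in list 1, 8.17e-05, belonged to the adjacent nucleotide, 217245767. Within 50 nucleotides on either side lay 33, 2 and 7 sites of lists 1, 2 and 3. A nucleotide shared by all 3 lists was found in 883 tested genes, 6.37%. No site reached a deposited p under 0.05 in all 3 lists, since the lowest of IGFBP5 in list 2 was 0.0580.

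Between pairs of lists, 9 sites of IGFBP5 were in lists 1 and 2 (1.30% of those in list 1, 52.9% of those in list 2) and 22 in lists 1 and 3 (3.18% and 56.4%). Within the last exon, 52.9% of list 2 sites and 57.1% of list 3 sites were also in list 1, which covers 11.4% of that exon's positions. For IGFBP7 the values were 43.5% and 47.1%, with 22% of positions covered. Along the last exon of IGFBP5 the sites gathered at both ends. In 4 parts of equal length, from the 5′ end on, list 1 had 149, 108, 94 and 196 sites, list 2 had 6, 2, 0 and 9, and list 3 had 9, 3, 7 and 16. The part at the 3′ end held the most in each list.

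**Figure D4:**
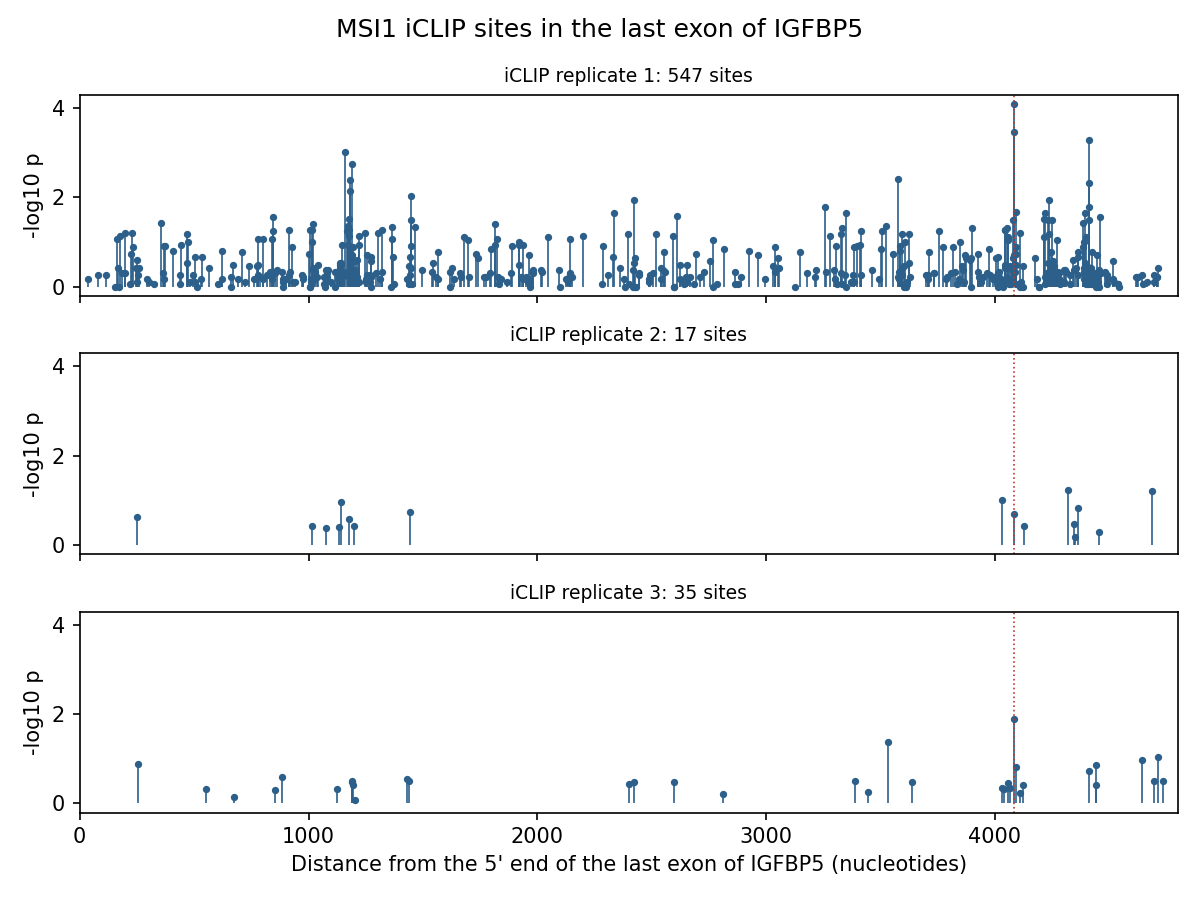
Positions of MSI1 iCLIP sites in the last exon of IGFBP5, as distance in nucleotides from the exon's 5′ end, for each of the 3 site lists from control cells, with the −log10 of the deposited p-value as height and a dotted line at nucleotide 4083. The site at nucleotide 4083 is the position in all 3 lists, and lists 1, 2 and 3 hold 547, 17 and 35 sites in this exon.

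No gene in the rest of the growth factor axis passed the test without the block. The list holds 56 genes named as ligands, receptors, adaptors, proteases, related proteins and the signal chain, of which 55 were in the table and 41 were tested. In edgeR 0 were called higher and 0 lower. An unadjusted p under 0.05 in edgeR was found for 14 of the 41, and for 2154 of all 13856 tested genes. DESeq2, which called 5.06% of 14122 genes, called 5 of the list (PAPPA, SHC1, IRS2, CRIM1 and FOXO1). The median log2 fold change was 0.07, beside -0.04 over all tested genes. With the replicate block 8 were called higher and 7 lower of 41, in a fit that called 17.3% of all tested genes.

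Among the ligands, IGF1 was close to the limit of detection, at 0.352, 0.734 and 0.704 CPM in knockdown replicates 1, 2 and 3, against 0.177, 0.334 and 0.280 CPM in control replicates 1, 2 and 3. The groups did not overlap, as for the 8.73% of all tested genes separated with the knockdown higher. The log2 fold change was 1.18 ± 0.44 (SE), with an adjusted p of 0.256 by edgeR. IGF2 had 0 reads in all 6 libraries, as had IGFBP1, the member of the family that liver secretes. A count of 0 allows up to 3 counts, or between 0.0663 and 0.0934 CPM by library, counting error only.

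The receptors did not pass the test. IGF1R, the receptor that signals for both ligands, averaged 289.98 ± 38.4 CPM in knockdown and 277 ± 31.1 CPM in control cells (SD, n = 3 each). IGF2R, which clears IGF2, averaged 499 ± 60.5 CPM in knockdown and 400.3 ± 73.5 CPM in control cells, with an adjusted p of 0.461 by edgeR and 0.0363 with the replicate block. INSR, the insulin receptor, had 1, 0 and 0 reads in knockdown replicates 1, 2 and 3, and 0, 4 and 0 in control replicates 1, 2 and 3, and was not tested.

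PAPPA, the protease that cuts IGFBP4 and IGFBP5, stood at 47.7, 50.1 and 35.2 CPM in knockdown replicates 1, 2 and 3, against 24.1, 18.9 and 15.1 CPM in control replicates 1, 2 and 3. The groups did not overlap, which was so, with the knockdown higher, for 8.73% of all tested genes. Its log2 fold change of 1.19 ± 0.23 (SE, n = 3 each) had an adjusted p of 0.0559 by edgeR and 0.00344 with the replicate block, and DESeq2's size factors brought it to 0.0467.

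The 5 further axis genes named next were picked out after their values were seen, and they are not the 5 with the largest changes. The log2 fold change was -0.60 for ADAM12 but -0.79 for PIK3CA, which is not described further. SHC1, an adaptor of receptor signalling, averaged 336 ± 58.7 CPM in knockdown and 163 ± 44.2 CPM in control cells, and the adaptor IRS2 averaged 19.8 ± 2.32 and 11.9 ± 1.98 CPM. CRIM1, a membrane protein with an IGFBP motif, averaged 539 ± 92.8 CPM in knockdown and 944 ± 134 CPM in control cells. ADAM12, a protease of IGFBP3 and IGFBP5, averaged 513 ± 87.2 and 778 ± 126 CPM, and FOXO1, a transcription factor that the pathway holds in check, averaged 19.7 ± 1.10 and 35.5 ± 5.50 CPM (SD, n = 3 each, knockdown then control). None of the 5 passed edgeR's test without the block (adjusted p between 0.0614 and 0.158), and all 5 passed it with the block, SHC1 and IRS2 higher and CRIM1, ADAM12 and FOXO1 lower.

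**Figure D5:**
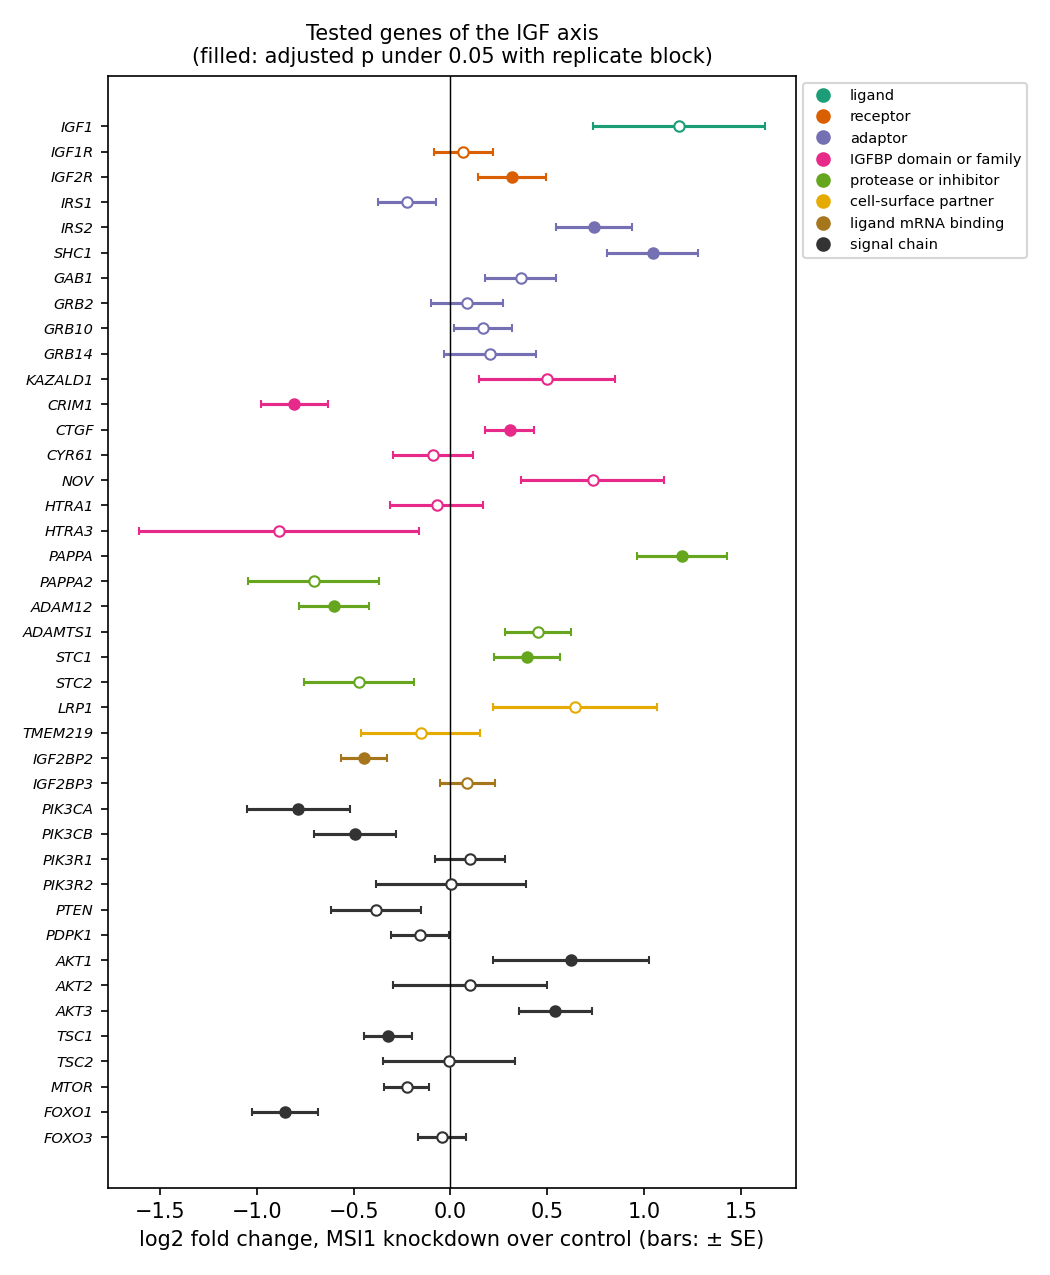
Log2 fold change, MSI1 knockdown over control, of the 41 tested genes of the growth factor axis, coloured by role, from the fit without the replicate block (bars, SE). Filled points are the 15 genes called with the block, and PAPPA at 1.19 and IGF1 at 1.18 are the highest values.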

How the data were processed

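RNA-seq values start from the raw counts of reads per gene and per exon that the authors deposited. iCLIP values start from deposited lists in which each site is 1 nucleotide, named by gene, with a number between 0 and 1 that is taken here as the authors' p-value since no header names it. Per the submitters' processing notes, coordinates are of build hg18. How reads were aligned and counted, whether by strand, and how sites were called is not given in the sources used. The labels' protocol speaks of biological replicates being combined, while the titles number 3 samples per group.

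The test of gene counts was edgeR's quasi-likelihood test (version 4.0.16, run in R 4.3.3) after TMM scaling and filterByExpr, with Benjamini-Hochberg adjustment over 13856 genes and a threshold of 0.05. The standard error is the log2 fold change over the square root of the F statistic, an approximation. Pair ratios and correlations used log2 CPM with a prior count of 2. Exon use was tested with diffSpliceDGE over 123109 exons, and exon shares are of the summed exon counts of a gene. RPKM used the summed exon lengths of the deposited tables. DESeq2 1.42.0 was an alternative test. The scripts for genes and exons were tested on simulated counts. The exon simulation held large changes and no library with uneven coverage, so it does not tell how well the exon test detects changes in these data.

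Same-numbered knockdown and control libraries deviated together from their group means (correlations of 0.32, 0.73 and 0.75 for replicates 1, 2 and 3). The replicate numbers of the titles were used as pairs, but only in the pair ratios and the replicate block. The titles do not say that same-numbered libraries belong together. The correlations come from the same libraries, with control replicate 3 far from the rest, so they do not establish the pairs. The main test was unpaired. Control replicate 1 correlated more with knockdown replicate 2 (0.49). Alternatives were DESeq2's test and size factors, no filter, exon sums, the replicate block, leaving out each replicate, and, for sites, a p-value limit and a distance of 5 nucleotides.

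3′ UTRs of at least 100 bases came from the longest coding transcript per gene, and a like length is 0.8 to 1.25 times that of the member. The members and lists were chosen with earlier results of these data known. The rule for named genes takes the members, MSI1, 7 axis genes (IGF1, IGF2, IGF1R, IGF2R, INSR, PAPPA and IGFBP1), axis genes called in the main test (0 were), and the 2 genes most correlated with each member. SHC1, IRS2, CRIM1, ADAM12 and FOXO1 fall outside this rule and were named after their values were seen.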

Additional observations from a re-analysis of the deposited data

How the results depend on the processing

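Of 72 recomputed log2 fold changes of the members, 60 kept their direction and side of the threshold, 4 lost the call (IGFBP5 without any 1 knockdown replicate or without control replicate 2), 1 gained it (IGFBP3 with the replicate block) and 7 changed sign, all of IGFBP7. Its log2 fold change of -0.03 became 0.020 with DESeq2's size factors, 0.021 without the filter, 0.065 from exon sums and 0.016 in DESeq2's test, and lay between -0.092 and 0.10 when 1 replicate was left out (above 0 without knockdown replicate 3, control replicate 1 or control replicate 3). The replicate block, which pairs same-numbered samples, moved the number of genes called to 2398 from 232, the members called to 2 from 1 and the axis genes called to 15 from 0, and changed no other call of a member. DESeq2 called 715 genes and 5 of the axis. Leaving out 1 replicate gave 0 genes (without knockdown replicate 1) to 1028 (without control replicate 3), 0 to 1 members and 0 to 9 axis genes. With DESeq2's size factors or without the filter 1 axis gene was called (PAPPA), and with last exons alone, chosen after seeing the data, 2 (PAPPA and SHC1). Calls split into 107 higher and 84 lower with size factors, 113 and 89 without the filter and 132 and 102 from exon sums, and the median of all genes moved by less than 0.1. No exon of a member was called in any alternative. Members with a nucleotide in all 3 site lists numbered 1, and 0 with a p-value under 0.05, 2 (IGFBP5 and IGFBP7) within 5 nucleotides and 2 whichever list was left out. Of 60 RPKM values, 4 moved by more than the replicate SD, all from exon sums (IGFBP4 2.02, IGFBP5 101 and IGFBP7 99.2 in knockdown cells and IGFBP7 94.9 in control cells).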
